A study of Mus musculus with 20 samples.

Results

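The 3′UTRs described here were moderately enriched with AGO2 in mouse hippocampal neurons and were lower in the AGO2 precipitate under both a miR-124 sponge and a miR-125 sponge. They are 225 of the 38158 annotated 3′UTRs in the count tables, of which 8203 held at least 10 counts in every RIP library. Members were chosen on CPM, the counts of each library scaled to a common column sum: the mean of the miR292sp libraries was 1.5 to 4 times that of the sham libraries, and the means with miR124sp and with miR125sp were both below 0.65 of the miR292sp mean. The enrichment limits alone kept 1793 3′UTRs, so that 225 passed both sponge limits and 1568 other moderately bound 3′UTRs did not. Of those others, 466 were below 0.65 with miR124sp only, 129 with miR125sp only and 973 with neither. The 225 belong to 223 named genes and 1 transcript without a gene name, with 2 separate 3′UTRs of Homer1.

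The study compared AGO2-bound RNA in adult male C57BL/6 mice whose hippocampus received AAV5 vectors, in which a synapsin promoter restricted expression to neurons. The RIP-seq groups were GFP-AGO2.miR124sp, GFP-AGO2.miR125sp and the control GFP-AGO2.miR292sp, all carrying GFP-tagged AGO2 with a sponge, and sham-injected mice without tagged AGO2. Each group had 2 libraries, and a library pooled the lysate of 2 hippocampi injected with the same vector, so that no value belongs to a single mouse. The mRNA-seq was done on other mice, 1 mouse a library, with GFP.miR124sp against GFP in 1 experiment and GFP.miR125sp against other GFP mice in a second, 3 mice a group, and these vectors carried no AGO2. RIP libraries held 2417942 to 5072501 counts and mRNA libraries 6950522 to 27833176.

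AGO2 is the protein at the centre of the RISC, which is guided to mRNAs by a bound miRNA, mostly through pairing between bases 2 to 8 of the miRNA (the seed) and the 3′UTR. Bound mRNAs are destabilised or translated less. miR-124 is the most characteristic miRNA of neurons, and miR-125 is also abundant in brain. A sponge is a transcript with many imperfect binding sites that occupies its miRNA, and miR-292, an embryonic miRNA, serves as a control that neurons are not known to use. The design thus asks which mRNAs left the RISC when miR-124 or miR-125 was occupied, and the 225 3′UTRs are those whose AGO2-bound level was lower with both.

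The seeds decide which 3′UTRs could pair with the sponged miRNAs, and are therefore shown first. The mature miRNAs below are from RefSeq (GRCm38.p6), written 5′ to 3′ with the seed in capitals. miR-125a and miR-125b share 1 seed and were searched as 1 motif, CTCAGGG, on the transcript strand. The motif for miR-124 was GTGCCTT.
miR-125a-5p: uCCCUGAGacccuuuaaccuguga
miR-125b-5p: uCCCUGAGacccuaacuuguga
let-7a-5p: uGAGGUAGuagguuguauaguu

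Sites for both sponged miRNAs occurred in 13 of the 223 members with an annotated 3′UTR sequence. The sites below show how a match looks in 5 members that the results name, on NCBIM37 (mm9), with the 7 matching bases in capitals and 8 bases on either side. Nr4a1 has a miR-124 match only, Plod3 and Slc43a2 have 1 of each, and Ttl has 3 miR-124 and 2 miR-125 matches, of which 1 each is shown. Neu1, the lysosomal sialidase, has 2 miR-124 matches and 1 miR-125 match, of which the miR-125 match is shown.
Nr4a1, miR-124, chr15:101104727-101104749, plus strand: tcacccatGTGCCTTtaagccta
Plod3, miR-124, chr5:137472158-137472180, plus strand: ctgccactGTGCCTTgttggaca
Plod3, miR-125, chr5:137472315-137472337, plus strand: cccatggaCTCAGGGaaagtgga
Slc43a2, miR-124, chr11:75389770-75389792, plus strand: cagtgacaGTGCCTTatctgtga
Slc43a2, miR-125, chr11:75390231-75390253, plus strand: tccacattCTCAGGGaaagctcc
Ttl, miR-124, chr2:128919155-128919177, plus strand: cagctttaGTGCCTTagtctgtg
Ttl, miR-125, chr2:128921035-128921057, plus strand: ggggctacCTCAGGGaggttttg
Neu1, miR-125, chr17:35072082-35072104, plus strand: gatacgaaCTCAGGGaactgaga

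Across the members, the median level was 47.8 and 50.6 CPM in the miR124sp libraries and 52.2 and 51.3 CPM in the miR125sp libraries, against 90.1 and 90.2 CPM in the miR292sp libraries and 33.1 and 35.6 CPM in the sham libraries. The sponge libraries thus lay between miR292sp and sham. The summed mean level of all members was 19928 CPM with miR124sp and 21323 CPM with miR125sp, against 35886 CPM with miR292sp and 13168 CPM in sham. The ratio to miR292sp had a median of 0.554 with miR124sp (range 0.255 to 0.6485) and 0.592 with miR125sp (0.328 to 0.649), and the enrichment of miR292sp over sham a median of 2.56 (1.51 to 3.99). These values chose the members and are given as a description.

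**Figure D1:**
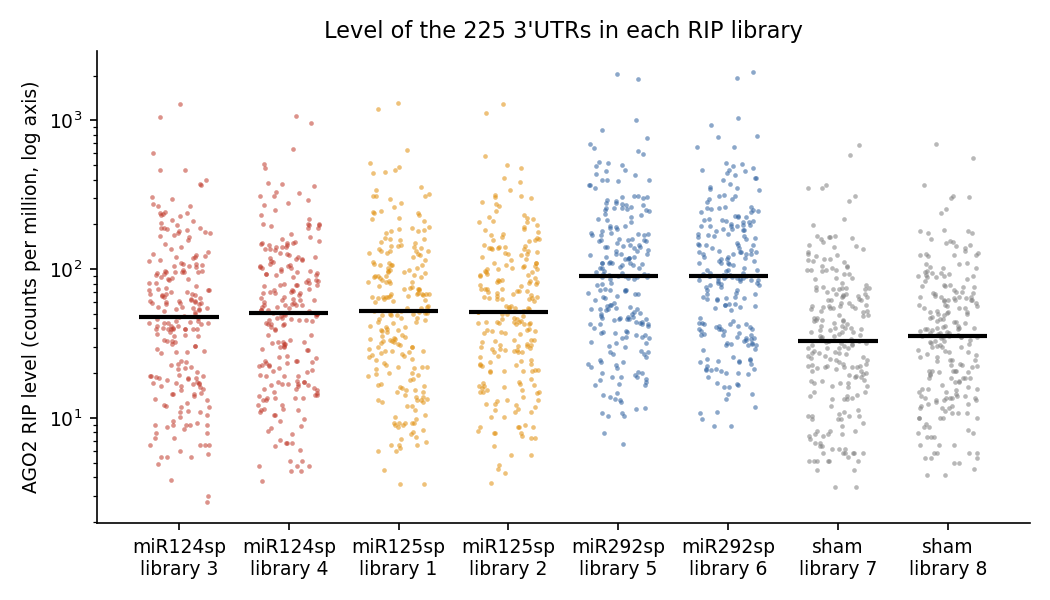
Level of each of the 225 3′UTRs in the 8 RIP libraries, in CPM on a log axis. Each point is a 3′UTR and the black line is the median of the library, which is 47.8 to 52.2 CPM in the 4 sponge libraries, 90.1 and 90.2 CPM with miR292sp, and 33.1 and 35.6 CPM in sham.

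Most members lay close to the limit. In 138 members the larger of the 2 sponge ratios was above 0.6, and in 13 both ratios were below 0.5. The miR124sp mean was the lower in 150 members and the miR125sp mean in the rest. In 31 members the miR124sp mean, and in 24 the miR125sp mean, was below the sham mean. All 4 sponge libraries were below both miR292sp libraries for 214 of the 225 members, against 19.4% of all 8203 3′UTRs, and both miR292sp libraries were above both sham libraries for 218, against 32.3%. Taken by sponge, both miR124sp libraries were below both miR292sp libraries for 216 (28.9% of all) and both miR125sp libraries for 220 (27.0% of all). The rule used these contrasts, so nothing is read from the counts. In the fit across all 3′UTRs (edgeR quasi-likelihood, adjusted p below 0.05), 51 members were lower with miR124sp (3.46% of all 3′UTRs) and 10 with miR125sp (0.232%), and 180 were higher with miR292sp than in sham (21.6%). None was called the other way, where 5.1% of all 3′UTRs were higher with miR124sp, 1.18% higher with miR125sp and 19.1% lower with miR292sp than in sham. The calls rested on single libraries: without miR292sp library 5 they were 3 with miR124sp and 1 with miR125sp, and without sham library 8 they were 88 and 21.

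**Figure D2:**
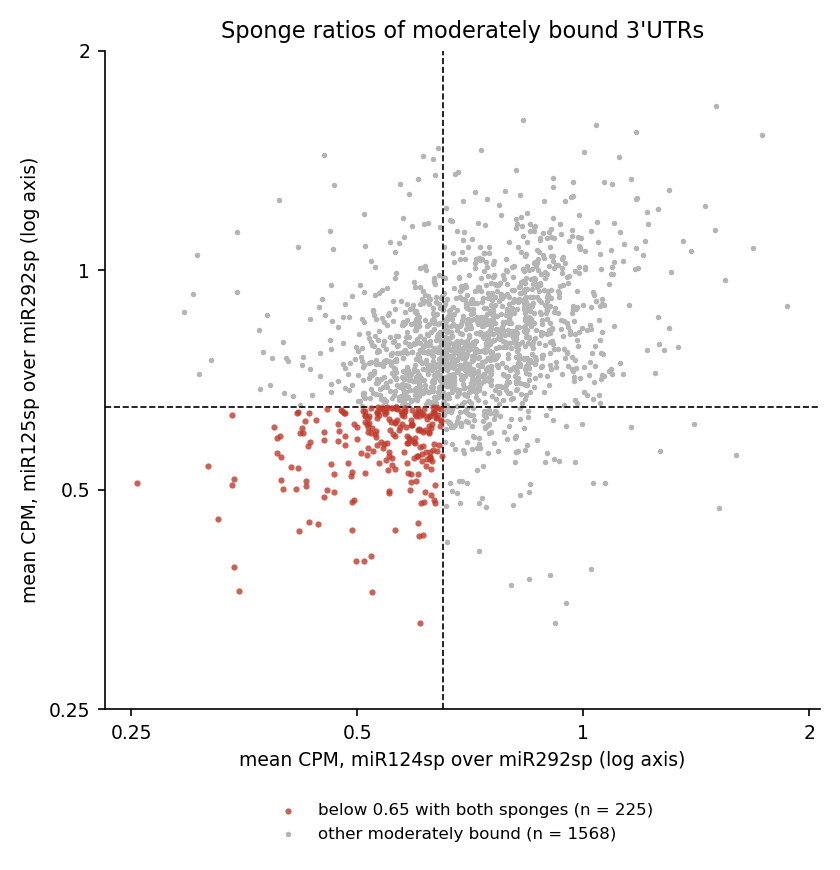
Mean CPM with miR124sp (x axis) and with miR125sp (y axis), each over that with miR292sp, for the 1793 moderately bound 3′UTRs on log axes. Dashed lines mark the limit of 0.65, and the 225 members fill the lower left corner, most of them close to a limit.

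Membership depended on single libraries. Leaving out each RIP library in turn gave 194 to 318 members, of which 141 (without miR292sp library 6) to 189 (without miR124sp library 4) were among the 225, and 33 members stayed in whichever library was left out. When each sponge library had to be below 0.65 of each miR292sp library, 29 members stayed. Among the members just inside a limit were Dtnbp1 and Gpm6a, both with a miR125sp ratio of 0.649, and among the 3′UTRs just outside were Cbfa2t3 at 0.651 and Phf2 at 0.652. At the miR124sp limit, Rasl10a at 0.6485 was inside and Hiat1 at 0.652 outside. At the enrichment limits, Clpb at 1.51 and Mapk8 at 3.99 were inside, and Taf2 at 1.497 and the immediate early gene Dusp1 at 4.03 outside. At the count minimum, Pappa and Prdm10 had 10 counts in their lowest library, and Pggt1b had 9.

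The level relative to Gapdh gave another picture of the same 3′UTRs. The study set each library relative to Gapdh together with its 50 upper and 50 lower neighbours in enrichment. These genes took 1.45% and 1.43% of the counts with miR124sp and 1.21% and 1.29% with miR125sp, against 0.697% and 0.745% with miR292sp and 2.01% and 1.92% in sham. On that scale the members were enriched 4.08 to 10.9-fold over sham with miR292sp, with a median of 6.95. All 225 were thus above 4-fold there, as were all 1568 other moderately bound 3′UTRs (4.05 to 10.9) and 2230 3′UTRs in all. No member met the enrichment limits of 1.5 to 4, and being above 4-fold does not set the members apart. Ranked by enrichment over sham on that scale, 96 members were outside the top 2230 with miR124sp and 81 with miR125sp, 72 of them with both. Over all 2230 the numbers were 475, 383 and 239, and over the 1568 other moderately bound 3′UTRs 320, 246 and 124. The rule used the same libraries, so nothing is read from these numbers. Marker lists of several cell types were also higher in the sponge libraries than in the control sponge libraries. The 13 measured 3′UTRs of the astrocyte marker list summed to 46464 and 46055 CPM with miR124sp and 36790 and 39173 CPM with miR125sp, against 15877 and 16759 CPM with miR292sp and 65814 and 66476 CPM in sham. Pyramidal cell markers (8 3′UTRs) summed to 3656 and 3818 CPM with miR124sp and 3285 and 3922 CPM with miR125sp, against 2685 and 2785 CPM with miR292sp and 4482 and 4448 CPM in sham. Markers of dentate granule cells, interneurons, endothelial cells, microglia and choroid plexus were likewise higher in all 4 sponge libraries than in both miR292sp libraries. Oligodendrocyte markers (19 3′UTRs) were an exception, at 1138.5 and 1540.7 CPM with miR124sp and 1416.5 and 1392.2 CPM with miR125sp. They summed to 1132.2 and 1161.6 CPM with miR292sp and 1496.7 and 1403.7 CPM in sham. The 22 neuron marker 3′UTRs summed to 13893 to 14777 CPM in the sponge libraries, against 13863 and 14621 CPM with miR292sp and 13717 and 12891 CPM in sham. The part of this library difference in the lower level of the members was not tested. Over all 3′UTRs the ratios to miR292sp were lower at higher enrichment, with medians of 1.38 (miR124sp) and 1.29 (miR125sp) below 1-fold enrichment and 0.562 and 0.698 above 4-fold. The miR292sp mean is the divisor of these ratios and the numerator of the enrichment. Its scatter alone can give such a trend, so nothing is read from it.

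Immediate early genes, which neurons switch on within minutes of activity, held 5 members, in 4 genes: Arc, Homer1, Junb and Nr4a1. The list has 24 measured 3′UTRs, of which 8 were moderately bound, so that 62.5% of its moderately bound 3′UTRs were members, against 12.5% of all moderately bound 3′UTRs. The gene lists were chosen with earlier results of these data known, and 2 of the 5 members are 3′UTRs of Homer1. The share is therefore a description only. None of the 5 was among the 33 members that stayed whichever library was left out. Of the 5, only Nr4a1 was below the limit in every pair of libraries. Nr4a1, an orphan nuclear receptor and transcription factor, had 105 and 120 CPM with miR124sp and 160 and 154 CPM with miR125sp, against 290 and 398 CPM with miR292sp and 98.9 and 92.2 CPM in sham. The sponge libraries were below both miR292sp libraries, as in 214 of the 225 members (19.4% of all 3′UTRs). The miR124sp libraries were close to sham. The log2 fold change over miR292sp was -1.60 ± 0.23 with miR124sp and -1.14 ± 0.22 with miR125sp (standard errors from edgeR, n = 2 libraries a group).

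Arc, whose protein controls removal of AMPA receptors from synapses, had 241 and 328 CPM with miR124sp and 448 and 413 CPM with miR125sp, against 622 and 1041 CPM with miR292sp and 352 and 366 CPM in sham. Here the miR124sp libraries were below both sham libraries. The table gives its 3′UTR 911 bases, where the annotation has 1665, and no match for either miRNA was found in the annotated sequence. Junb, which forms the transcription factor AP-1 with Fos proteins, had 14.7 and 24.1 CPM with miR124sp and 21.8 and 30.4 CPM with miR125sp, against 34.3 and 55.5 CPM with miR292sp and 18.8 and 20.7 CPM in sham.

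Homer1 codes for a scaffold of the postsynaptic density and for a short activity-induced form that competes with it. The list counts 3′UTRs by gene name. The form of each Homer1 member was not assigned, so the list may count a 3′UTR of the scaffold, which is not the activity-induced form. The 3′UTR on chromosome 13 from 94172185 to 94174917 had 191 and 231 CPM with miR124sp and 189 and 179 CPM with miR125sp, against 351 and 349 CPM with miR292sp and 97.6 and 88.5 CPM in sham. The 3′UTR from 94126069 to 94130417 had 182 and 121 CPM with miR124sp and 161 and 129 CPM with miR125sp, against 277 and 208 CPM with miR292sp and 93.5 and 61.6 CPM in sham. Both were lower in every sponge library than in every miR292sp library, as were 214 of the 225 members. A further Homer1 3′UTR was moderately bound but not a member, with ratios of 0.522 with miR124sp and 1.03 with miR125sp, and so were Sik1 (0.465 and 1.07) and Trib1 (0.613 and 0.708). Among immediate early genes above 4-fold enrichment, which the rule leaves out, Fos had ratios of 0.178 and 0.222, Ier2 0.310 and 0.427, Dusp1 0.342 and 0.453, Btg2 0.497 and 0.578 and Ptgs2 0.533 and 0.630. Each pair gives miR124sp and then miR125sp over miR292sp. The 11 immediate early gene 3′UTRs below 1.5-fold enrichment, also outside the rule, had ratios of 0.567 to 1.99 with miR124sp and 0.575 to 2.31 with miR125sp. Among them were Bdnf (0.983 and 1.00), Jun (1.18 and 0.818) and Nfil3 (1.74 and 1.83), and 9 of the 11 were at or above 0.65 with both sponges. Over all 24 3′UTRs of the list the median ratios were 0.608 with miR124sp and 0.669 with miR125sp, against 1.02 and 1.03 over all measured 3′UTRs.

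**Figure D3:**
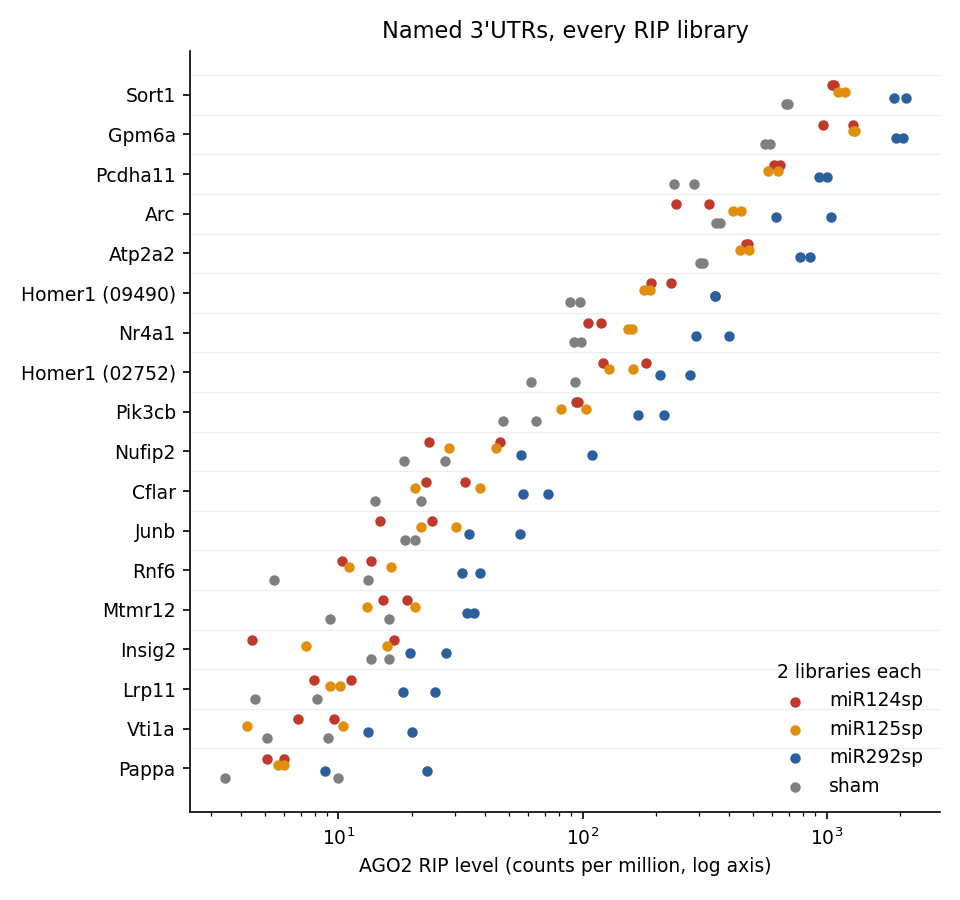
Level of 18 named 3′UTRs in each of the 8 RIP libraries, in CPM on a log axis, ordered by the miR292sp mean. Each point is a library. For Nr4a1 the miR124sp points at 105 and 120 CPM lie beside the sham points at 98.9 and 92.2 CPM, and for Arc they lie below the sham points. Homer1 is given for 2 transcripts by the last 5 digits of their identifiers.

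The 10 members with the lowest larger ratio included Nr4a1 and several with few counts. Pappa, a protease that frees insulin-like growth factors from their binding proteins, had 6.01 and 5.09 CPM with miR124sp and 5.96 and 5.64 CPM with miR125sp, against 23.1 and 8.82 CPM with miR292sp and 3.41 and 9.93 CPM in sham, so that the miR292sp libraries differed more from each other than the lower of them did from the sponge libraries. Rnf6, a ubiquitin ligase, had 10.4 and 13.6 CPM with miR124sp and 16.4 and 11.0 CPM with miR125sp, against 37.9 and 32.1 CPM with miR292sp and 5.46 and 13.2 CPM in sham. It was below the limit in every pair of libraries. Nufip2, an RNA-binding protein, had 45.9 and 23.4 CPM with miR124sp and 44.1 and 28.5 CPM with miR125sp, against 109 and 56.1 CPM with miR292sp and 27.3 and 18.6 CPM in sham.

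Cflar, an inhibitor of caspase-8, had 33.0 and 22.8 CPM with miR124sp and 37.9 and 20.6 CPM with miR125sp, against 72.2 and 57.1 CPM with miR292sp and 21.8 and 14.1 CPM in sham. Its 3′UTR holds 1 miR-124 match and 2 miR-125 matches. Pik3cb, a catalytic subunit of PI3 kinase, had 95.8 and 93.7 CPM with miR124sp and 82.0 and 103 CPM with miR125sp, against 170 and 216 CPM with miR292sp and 47.1 and 64.5 CPM in sham, without a match for either miRNA. Both sponges gave close values for Pik3cb, with log2 fold changes over miR292sp of -1.01 ± 0.25 (miR124sp) and -1.07 ± 0.25 (miR125sp). The others of the 10 were Lrp11, Insig2 (a regulator of sterol synthesis), the SNARE protein gene Vti1a and Mtmr12, with ratios of 0.443 to 0.495 with miR124sp and 0.441 to 0.490 with miR125sp. Of these, Insig2 had 4.42 and Vti1a 4.23 CPM in their lowest sponge library.

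The 5 members with the highest level in the miR292sp libraries were Sort1, Gpm6a, Pcdha11, Arc and Atp2a2. Sort1, a sorting receptor for neurotrophins, had 1056 and 1071 CPM with miR124sp and 1191 and 1116 CPM with miR125sp, against 1898 and 2110 CPM with miR292sp and 684 and 692 CPM in sham. Its replicates lay close together, with log2 fold changes over miR292sp of -0.90 ± 0.15 (miR124sp) and -0.81 ± 0.15 (miR125sp), and it stayed a member whichever library was left out. Gpm6a, a neuronal membrane glycoprotein, had 1281 and 969 CPM with miR124sp and 1306 and 1284 CPM with miR125sp, against 2060 and 1931 CPM with miR292sp and 589 and 558 CPM in sham. Atp2a2, the calcium pump of the endoplasmic reticulum, had 467 and 478 CPM with miR124sp and 444 and 480 CPM with miR125sp, against 858 and 779 CPM with miR292sp and 311 and 304 CPM in sham. The protocadherin alpha genes share their 3′ exons, so that the value of Pcdha11 cannot be assigned to that gene alone.

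Members were spread over many gene groups rather than filling one. Postsynaptic density genes held 4 members of 28 measured 3′UTRs: Shank3, and Arc and both Homer1 3′UTRs, which also count as immediate early genes. Other transcription factors held 7 of 92 (among them Elk1, Foxo1, Neurod6, Sox4 and Tcf4). Over all measured 3′UTRs the share was 2.74%. Chromatin regulators held 7 of 122, among them Kdm5c, a histone demethylase, with ratios of 0.512 with miR124sp and 0.528 with miR125sp. Ubiquitin ligases, their adaptors and deubiquitinases held 7 of 190, cadherins and protocadherins 3 of 26, axon guidance genes 3 of 45 (Efnb1, Robo1 and Slit3) and insulin, PI3 kinase and mTOR signalling genes 3 of 38 (Akt2, Foxo1 and Pik3cb). Of the miRNA pathway genes, 1 of 13 was a member: Ago1, listed as Eif2c1, a paralogue of AGO2. It had 7.92 and 7.13 CPM with miR124sp and 13.4 and 9.02 CPM with miR125sp, against 21.7 and 22.4 CPM with miR292sp and 6.48 and 8.69 CPM in sham.

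Some groups held no member, and most of these had few 3′UTRs that could have been one. There was no member among 35 measured 3′UTRs of synaptic vesicle release genes, 76 of oxidative phosphorylation, 37 of proteasome subunits and 25 each of Wnt signalling, of cell cycle genes and of Notch, TGF-beta and hedgehog signalling. Moderately bound, and so open to membership, were 9 of synaptic vesicle release, 8 of cell cycle, 6 of Notch, TGF-beta and hedgehog signalling, and 1 each of oxidative phosphorylation, the proteasome and Wnt signalling. With 12.5% of all moderately bound 3′UTRs being members, nothing is read from these counts. Of the cell type markers, Neurod6, a transcription factor of pyramidal cells, was the only member. It had 236 and 252 CPM with miR124sp and 218 and 220 CPM with miR125sp, against 389 and 411 CPM with miR292sp and 198 and 154 CPM in sham. Markers of astrocytes (13 3′UTRs), oligodendrocytes (19), microglia (5) and endothelial cells (3) had no moderately bound 3′UTR.

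The share of members with a seed match depended on how a match was counted. A miR-124 match was found in 48 of 223 members (21.5%), in 22.5% of 1561 other moderately bound 3′UTRs and in 16.4% of all measured 3′UTRs with a sequence. A miR-125 match was found in 34 members (15.2%), against 21.5% of other moderately bound 3′UTRs and 16.3% of all. Neither match was present in 154 members (69.1%), against 62.0% of other moderately bound and 71.2% of all 3′UTRs. A match for let-7 (CTACCTC), which was not sponged, was found in 43 members (19.3%), against 17.0% of other moderately bound and 11.6% of all 3′UTRs. For miR-9 (ACCAAAG) the share was 15.7% of members and 15.4% of all, and for miR-21 (ATAAGCT) 7.17% and 8.46%. All motifs were searched on the transcript strand. A match is a run of letters and not a shown site, and the differences in share were not tested. With matches of 8 bases, which add the A opposite base 1 of the miRNA, the shares were 5.83% of members for either miRNA, against 4.87% (miR-124) and 6.73% (miR-125) of other moderately bound 3′UTRs.

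**Figure D4:**
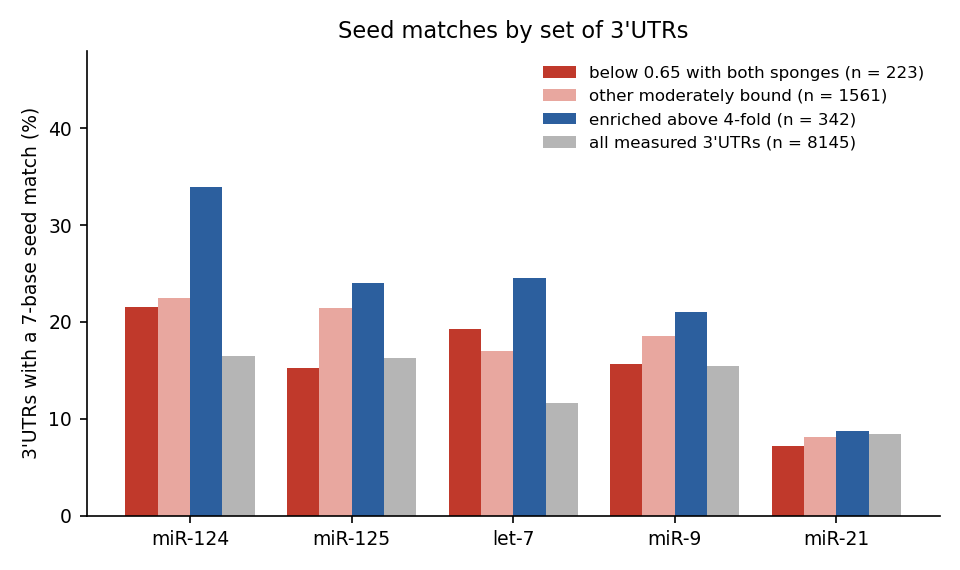
Share of 3′UTRs with at least 1 seed match of 7 bases for 5 miRNAs, in percent from 0, in the members, the other moderately bound 3′UTRs, those enriched above 4-fold and all measured 3′UTRs. For miR-124 the members are at 21.5% and the other moderately bound 3′UTRs at 22.5%, and for miR-125 at 15.2% and 21.5%.

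Members were somewhat shorter than the other moderately bound 3′UTRs, with a median of 1464 bases (quartiles 817 and 2209) against 1684 (924 and 2728), and long 3′UTRs hold more matches. Of the members of at least 3000 bases, 15 of 36 had a miR-124 match and 13 a miR-125 match (41.7% and 36.1%), against 35.8% and 34.9% of other moderately bound 3′UTRs of that length. Weighted to the members' lengths, other moderately bound 3′UTRs had a miR-124 match in 21.2% and a miR-125 match in 20.0%. The difference for miR-124, members minus other moderately bound 3′UTRs, was thus -0.96 percentage points with 7-base matches, 0.96 with 8-base matches and 0.37 within length bins, and its sign changed with the count. GC content had a median of 44.7% in members and 46.5% in other moderately bound 3′UTRs. Members lay on 20 chromosomes, 11 of them on the X chromosome.

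The ratios of each match class are given as a description, since the rule held both below 0.65 in every class. Members with matches for both miRNAs had median ratios of 0.558 with miR124sp and 0.590 with miR125sp (n = 13), those with a miR-124 match only 0.533 and 0.581 (n = 35), those with a miR-125 match only 0.547 and 0.616 (n = 21), and those with neither 0.561 and 0.591 (n = 154). Among members with both matches, Slc43a2, an amino acid transporter, had 95.8 and 136 CPM with miR124sp and 141 and 137 CPM with miR125sp, against 235 and 248 CPM with miR292sp and 104 and 76.1 CPM in sham. Ttl, the tubulin tyrosine ligase, had 120 and 141 CPM with miR124sp and 121 and 137 CPM with miR125sp, against 230 and 207 CPM with miR292sp and 75.7 and 62.0 CPM in sham. Plod3, a collagen-modifying lysyl hydroxylase, had 27.8 and 22.4 CPM with miR124sp and 39.3 and 31.0 CPM with miR125sp, against 54.2 and 72.8 CPM with miR292sp and 22.2 and 20.3 CPM in sham. In these 3 genes no sponge library reached the lower miR292sp library, as in 214 of the 225 members, so this sets none of them apart.

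The mRNA-seq, in other mice, is independent of the choice of members. The question is whether the mRNA of the same genes was higher when a sponge was present. Of 222 member genes with a RefSeq symbol, 204 could be tested in the miR-124 experiment and 202 in the miR-125 experiment. The others had too few counts or, in 1 case, no entry in the mRNA table. Arc is listed at 0 in all 12 mice. In whole tissue, fewer cells of a type and less RNA per cell cannot be told apart.

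With miR124sp, 34 of 204 member genes were higher than in GFP mice and 17 lower (edgeR quasi-likelihood, adjusted p below 0.05). Over all genes tested, 12.6% were higher and 10.7% lower, so that the members' shares were 16.7% and 8.33%. The other moderately bound genes had 20.2% higher and 6.43% lower, and those above 4-fold enrichment 23.9% and 3.92%. The median log2 fold change was 0.07 in members, 0.08 in other moderately bound genes and -0.01 in all genes. By seed match, 3 of 13 tested members with both matches, 6 of 32 with a miR-124 match only, 1 of 19 with a miR-125 match only and 23 of 139 with neither were higher. Lower were 0, 1, 1 and 15 in the same order. The median log2 fold change was 0.19 with both matches, 0.15 with a miR-124 match only, 0.04 with a miR-125 match only and 0.06 with neither, and these classes were not tested against each other.

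Nr4a1 had the largest rise among these calls, with 93.1, 75.2 and 80.6 CPM in miR124sp mice, against 37.3, 44.0 and 50.9 CPM in GFP mice. The groups did not overlap, as in 1564 of all 1629 genes called higher. The log2 fold change was 0.95 ± 0.12 (adjusted p = 0.00368, edgeR). In the miR-125 experiment it had 115, 79.5 and 86.1 CPM in miR125sp mice, against 77.1, 122.7 and 88.9 CPM in GFP mice, which overlapped. The level in miR124sp mice was thus within or near the range of the second experiment, and the GFP mice of the first were below it.

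Gpr37, an orphan receptor found in oligodendrocytes and neurons, had 174, 159 and 200 CPM in miR124sp mice, against 119, 117 and 107 CPM in GFP mice (log2 fold change 0.68 ± 0.09, adjusted p = 0.00378, edgeR). Rtn4r, the Nogo receptor that restrains axon growth, had 137, 127 and 134 CPM in miR124sp mice, against 100.6, 89.7 and 92.1 CPM in GFP mice. Slc44a1, a choline transporter, had 61.1, 57.4 and 69.4 CPM in miR124sp mice, against 41.4, 45.2 and 43.2 CPM in GFP mice. None of these 3 genes had overlapping groups, which held for 33 of the 34 members called higher and so sets none of them apart. Man2a1, a Golgi mannosidase with a miR-124 match, was higher by a log2 fold change of 0.80 ± 0.13, and Atp2a2 by 0.62 ± 0.11. Smaller rises were called for Junb (0.38 ± 0.11), Pik3cb (0.32 ± 0.09), Vti1a (0.24 ± 0.07), Ttl (0.24 ± 0.08) and Ago1 (0.23 ± 0.07).

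Fam96a, also called Ciao2a and linked to iron-sulfur cluster assembly, had 23.7, 24.6 and 22.1 CPM in miR124sp mice, against 34.1, 38.9 and 37.7 CPM in GFP mice, and its log2 fold change was -0.62 ± 0.08 (adjusted p = 0.00368, edgeR). Mrpl53, a protein of the mitochondrial ribosome, had 24.9, 32.0 and 26.0 CPM in miR124sp mice, against 42.3, 42.7 and 44.5 CPM in GFP mice. Tcerg1l had 11.2, 10.9 and 10.4 CPM in miR124sp mice, against 19.1, 17.6 and 16.7 CPM in GFP mice. In these 3 genes every miR124sp mouse was below every GFP mouse, as in all 17 members called lower and in 1380 of all 1389 genes called lower. Txndc17 and the ribosomal protein gene Rpl24 were lower too, by log2 fold changes of -0.46 ± 0.08 and -0.44 ± 0.08.

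**Figure D5:**
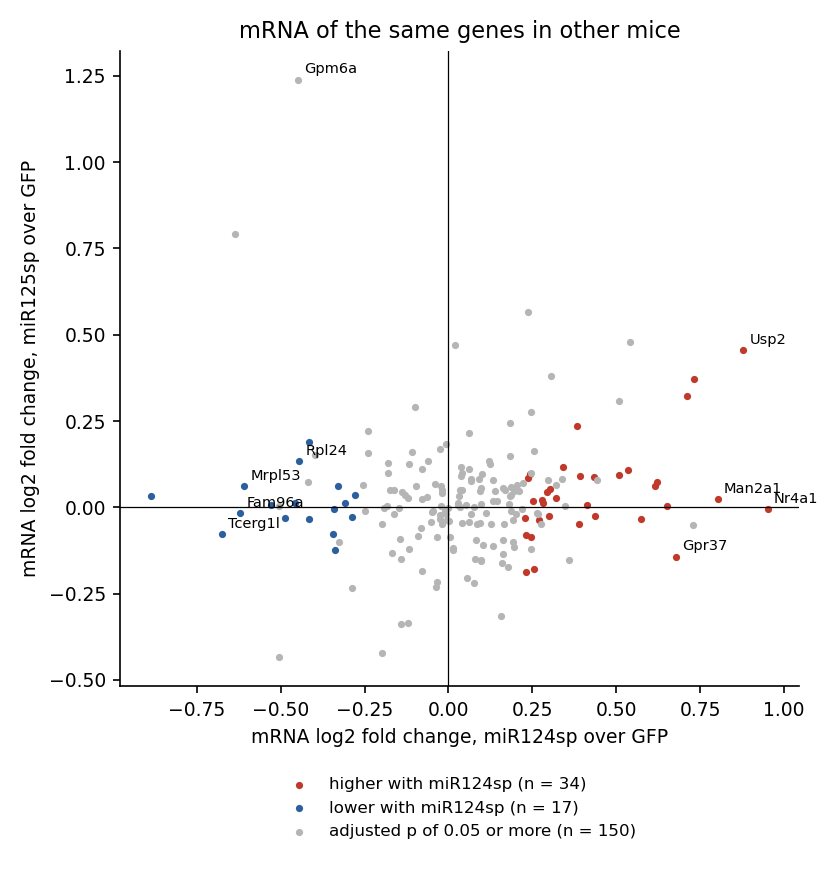
mRNA log2 fold change of 201 member genes with miR124sp over GFP (x axis) and with miR125sp over GFP (y axis), each experiment on its own 6 mice. Red points are the 34 genes higher and blue points the 17 lower with miR124sp, and most of them lie near 0 on the y axis. Gpm6a, at the top, had about 1 CPM in the mRNA libraries.

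Several library properties moved with the miR-124 experiment. Called genes differed in length, with a median transcript of 3497 bases in members that were higher and 1539 in those that were lower, and 4064 and 1507 over all called genes. Of the oligodendrocyte markers, 13 of 18 tested were higher and the list summed to 2148 to 2756 CPM in miR124sp mice, against 1539 to 1696 CPM in GFP mice. Of the astrocyte markers, 6 of 13 were lower, with sums of 7186 to 7239 CPM in miR124sp mice, against 8502 to 9896 CPM in GFP mice. Of the microglia markers, 7 of 12 were lower, with sums of 822 to 883 CPM in miR124sp mice, against 973 to 1061 CPM in GFP mice. Of the neuron markers, 10 of 22 were higher, with sums of 15944 to 16158 CPM in miR124sp mice, against 13000 to 14269 CPM in GFP mice, and of the interneuron markers 4 of 12 were higher. In 25 of the 34 higher and 14 of the 17 lower member genes, the miR124sp mean was nearer to the GFP mean of the miR-125 experiment than was the GFP mean of its own experiment, and over all called genes this held for 67.3% and 81.4%. The part of these properties in the calls was not tested. Headers of 8 mRNA libraries carried a mark read here as combined runs, which the miR124sp mice 2 and 9 lacked. Only miR124sp mouse 14 of its group thus carried the mark. In a fit with the mark as a covariate, mark and sponge can therefore hardly be told apart. The median log2 fold change of members in that fit was 0.040. Its calls enter only the counts over the alternatives, and a call lost in it cannot be assigned to the mark or the sponge. Over the alternatives, that fit among them, the miR124sp call of Junb was lost in 4. Those of Pik3cb and Vti1a were lost in 5 each, and those of Ttl and Ago1 in 7 each. The calls of Nr4a1, Gpr37, Rtn4r, Slc44a1, Man2a1, Atp2a2, Fam96a, Mrpl53, Tcerg1l, Txndc17 and Rpl24 were lost in none.

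Single mice decided much of the count. Without GFP mouse 15 there were 8 members higher and 7 lower, without miR124sp mouse 2 there were 9 and 10, without miR124sp mouse 14 there were 13 and 9, and without GFP mouse 20 there were 20 and 18.

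With miR125sp, 0 of 202 member genes passed the test in either direction, where 0.0554% of all genes tested were higher and 0.15% lower (edgeR). At an unadjusted p below 0.05 there were 30 of 202 member genes, against 1659 of all 12638 genes, and DESeq2 called 1 higher and 1 lower, Panx2 and Rasl10a. The median log2 fold change was 0.01 in members and -0.01 in all genes, and 112 of 202 member genes were positive (55.4%), against 48.4% of all genes. Members with a miR-125 match and no miR-124 match had a median of 0.02 (n = 18) and those with both -0.03 (n = 13).

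The difference between the 2 sponge effects was tested over all 12 mice as an interaction. It was positive (higher with miR124sp than with miR125sp, each over its own GFP mice) in 18 of 205 member genes and negative in 12 (edgeR, adjusted p below 0.05), against 7.42% and 7.06% of all genes. Nr4a1, with 0.96 ± 0.24, was among the positive and Mrpl53, with -0.68 ± 0.13, among the negative. Because each sponge has GFP mice of its own experiment, a shift between the 2 sets of GFP mice enters this difference and cannot be told apart from a difference between the sponges.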

How the data were processed

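Mouse hippocampal AGO2 RIP-seq (8 libraries in 4 groups of 2) and mRNA-seq (12 mice in 4 groups of 3) were analysed. The authors deposited raw counts, per Ensembl 3′UTR for the RIP and per RefSeq transcript for the mRNA, from 50 bp single-end reads. The submitters' processing notes name STAR, edgeR and mm10, whereas the study's methods name mm9 (counting program: not given in the sources used here). Lengths of 3′UTRs in the file equalled the NCBIM37 annotation (GENCODE M1) for 82.7% of 3′UTRs.

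Fits used edgeR 4.0.16 in R 4.3.3 (quasi-likelihood, TMM) with Benjamini-Hochberg adjustment over all 3′UTRs or genes tested and a threshold of 0.05. RIP fits took 3′UTRs with 10 or more counts in each library. mRNA counts were summed per gene symbol and filtered with filterByExpr, and each experiment was fitted on its own 6 mice. DESeq2 1.42.0, other scalings and filters and leaving out each library were alternatives. RIP values chose the members, so their RIP tests are descriptive. The p-values of the mRNA fits measure the spread between mice. The fits were tested on simulated data. Seed matches were read in the 3′UTR sequences of the GENCODE M1 transcripts with Python 3.11.15, and the sites shown were checked against the genome.

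The members and gene lists were chosen with earlier results of these data known. Named were the 10 members with the lowest larger sponge ratio, the 5 highest with miR292sp, up to 4 of each gene list by that ratio, up to 8 per mRNA comparison by p, up to 8 with both seed matches, those beside each limit, and genes with several 3′UTRs. Further list members are named without values, some are not reported here, and Panx2 and the immediate early genes that are not members were chosen after their values were seen.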

Additional observations from a re-analysis of the deposited data

Results flagged for a closer look

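The difference between the miR124sp effect and the miR125sp effect on mRNA, each over its own GFP mice, passed the interaction test (edgeR quasi-likelihood over 12 mice, adjusted p below 0.05) in 19 of the named member genes, of which up to 8 were named for their p in this test. Over all 205 member genes tested it was positive in 18 (7.42% of all genes) and negative in 12 (7.06% of all genes). Among the named genes it was positive for Nr4a1 (log2 difference 0.96), Gpr37 (0.81), Man2a1 (0.77), Slc44a1 (0.59), Zfp385b (0.54), Atp2a2 (0.54), Rab11fip5 (0.43), Mylip (0.42), Rtn4r (0.42), Sec61a1 (0.31), Larp4b (0.31), Ago1, listed as Eif2c1 (0.30) and Zfp532 (0.30). It was negative for Gpm6a (-1.69), Mrpl53 (-0.68), Fam96a (-0.62), Rpl24 (-0.59), Txndc17 (-0.48) and Ppp2r5c (-0.40). The smallest adjusted p was 0.00205 (Rpl24) and the largest 0.0442 (Slc44a1). Gpm6a was at 0.581 to 2.08 CPM in these mice, and its call was lost under 10 of the alternatives. The calls of Slc44a1, Zfp385b and Ppp2r5c were lost under 9 each, Zfp532 under 8, Ago1 under 7, Rab11fip5 under 6 and Larp4b under 5. The 2 effects have different GFP mice, so that a difference between the experiments and one between the sponges cannot be told apart.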

How the results depend on the processing

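The rule gave 225 members. It gave 2170 with scaling to Gapdh and its neighbours, of which 0 were among the 225, 141 with 50 or more counts, 29 with the limit applied to each library and 13 with a limit of 0.5. Leaving out a library gave 194 to 318. The median RIP log2 fold change of members was -0.84 with miR124sp, -0.77 with miR125sp and 1.44 for miR292sp over sham. With DESeq2 these were -0.89, -0.82 and 1.47, with the Gapdh scaling -1.85, -1.55 and 2.80, and the last was 1.36 with column sums. Members called lower with miR124sp were 51, and 112 with DESeq2 and 225 with the Gapdh scaling. With miR125sp they were 10, and 59 with DESeq2, 222 with the Gapdh scaling and 16 with column sums. Leaving out a library gave medians of -0.888 to -0.837, -0.812 to -0.747 and 1.40 to 1.49, and 3 to 88 and 0 to 22 calls.

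In mRNA with miR124sp, 34 members were higher and 17 lower, and 14 and 10 with the run mark as covariate. A fit of 12 mice called 27 lower. Leaving out a mouse gave 8 to 35 higher and 7 to 24 lower. The median log2 fold change was 0.068, and 0.046 without a filter, 0.040 with the run mark and 0.044 to 0.079 without 1 mouse. With miR125sp, 0 were called, and DESeq2 and the fit without a filter each called 1 higher and 1 lower, the run mark 1 higher, and leaving out a mouse 0 to 1 in either direction. The median was 0.0085, and 0.013 with DESeq2, 0.020 without a filter, 0.022 with the run mark and 0.012 to 0.031 without 1 mouse. The interaction counts of 18 positive and 12 negative were 10 to 28 and 6 to 18 without 1 mouse. The miR-125 match difference of -6.21 percentage points was -0.90 with 8-base matches. That for miR-124, -0.96, was 0.96 with 8-base matches and 0.37 within length bins. Among the named members, no called value changed sign. The called values of other members, and the mRNA fit per transcript, were not followed for sign. The cause of these changes was not tested.

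No paired analysis was possible because the groups compared share fewer than 2 replicate numbers. With 2 libraries a group, the RIP counts of members with few counts set their ratios only loosely: 38 members had under 20 counts in a library, and without them (a choice made after seeing the data) the median ratios were 0.562 with miR124sp and 0.601 with miR125sp.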
